A study of Mus musculus with 4 samples.

Results

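Transcripts of glycolysis and of the hypoxia-inducible factor (HIF) pathway were examined in kidneys of WT and Apela Ksp KO mice at day 3 after bilateral renal ischemia/reperfusion (I/R). The genes were 43 symbols taken from the glycolytic pathway, the enzymes at its entry and exit, and the HIF system, matched by name in the deposited table of gene-level FPKM (fragments corrected for gene length and sequencing depth). They correspond to 44 of its 54078 rows, because Aldoa is listed under 2 gene identifiers. All 44 rows had at least 1 read in each pool. The test required a mean of 0.5 FPKM or more, and 43 of the 44 rows passed, the exception being Slc2a3. Gene coordinates are those of GRCm38.

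The KO mice carried floxed Apela alleles and Cre under the Ksp-cadherin promoter, which is active in tubular epithelial cells of the kidney, so that cells outside the tubules keep the gene. The WT mice were Apela flox/flox littermates without Cre, and thus share the floxed alleles. All were male adult mice, with both renal pedicles clamped for 30 min. The sample labels give the strain as C57BL/6 x 129S4/SvJae, whereas the methods of the study give C57BL/6. There were 2 libraries per group, each from a pool of RNA of 3 mice, so n counts pools. Although the design text of the series mentions adipose tissue, title and labels give kidney. The proximal tubule markers summed to between 7833 and 14627 FPKM per pool, whereas the adipose markers summed to 1.56 and 0.37 FPKM in WT and 8.27 and 3.19 FPKM in KO, and Ucp1 was at 0 in every pool. The lipid droplet gene Cidec held most of the adipose sum, with 1.37 and 0.28 FPKM in WT against 7.92 and 2.79 FPKM in KO. Uninjured kidneys were not analysed here, so every value refers to injured tissue.

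Glycolysis converts glucose to pyruvate, which is either reduced to lactate or passed into mitochondria through pyruvate dehydrogenase. Proximal tubule cells, the bulk of the renal cortex, normally rely on fatty acid oxidation and make glucose rather than consume it, while distal segments and injured tubules use more glycolysis. HIF is a heterodimer whose alpha subunit, HIF-1alpha (Hif1a) or HIF-2alpha (Epas1), is hydroxylated by prolyl hydroxylases of the EGLN family when oxygen is present, bound by the von Hippel-Lindau protein (Vhl) and degraded. When oxygen falls the subunit accumulates and binds hypoxia-response elements, whose core is ACGTG or GCGTG, near genes of glucose uptake, glycolysis and mitophagy. HIF-alpha is regulated mainly as a protein, which RNA-sequencing does not measure.

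The libraries held 16045724 to 16927742 reads assigned to genes, of which 5.20% to 6.45% were mitochondrial. Apela itself had 5.27 and 4.57 FPKM in the WT libraries, compared with 0.536 and 0.245 FPKM in the KO libraries, or 85, 79, 9 and 4 reads, which matches the labels. WT 2 stood apart from the other pools in macrophage markers, whose values are given after those of the hexokinases. The KO and WT pools were compared on log2(FPKM + 0.5) with limma, and p-values were adjusted by Benjamini-Hochberg over all 15414 genes past the filter. On this scale the fold change of low genes is understated. No gene passed an adjusted p of 0.05 (0 of 15414, 0%), with a lowest adjusted p of 0.466, and 0 passed with voom weights on the recovered reads. An unadjusted p under 0.05 was found for 974 genes, 507 higher in KO (3.29% of those tested) and 467 lower (3.03%). Without a test, both KO pools lay above both WT pools in 19.7% of the 15414 genes, and the reverse order held in 18.1%. With 2 pools per group, the smallest two-sided p that exact permutation allows is 0.333.

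None of the 43 rows tested passed the threshold, and none had an unadjusted p under 0.05. Their adjusted p-values (limma, Benjamini-Hochberg) ran from 0.785 to 0.997. Both KO pools lay above both WT pools for 16 rows (37.2%, against 19.7% of all genes tested) and below them for 6 (14.0%, against 18.1%), while the pools overlapped for 21. With quantile normalization, and also with recovered reads divided by the library total, these counts were 14 above and 9 below. The log2 fold change was above 0 for 27 rows and below 0 for 16, with a median of 0.147 beside 0.007 over all genes tested, and of 0.116 without WT 2, 0.085 without KO 1 and 0.086 with voom. The values ran from -0.78 for Hk3 to 0.94 for Egln3. These counts describe the genes chosen and carry no test. The median absolute difference between the WT pools was 0.138 over these genes on the log2 scale and that between the KO pools 0.150, while that between the group means was 0.228. Over all genes tested these medians were 0.196, 0.172 and 0.147. The last is a difference of means of 2 pools, whereas the others set single pools against each other.

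**Figure D1:**
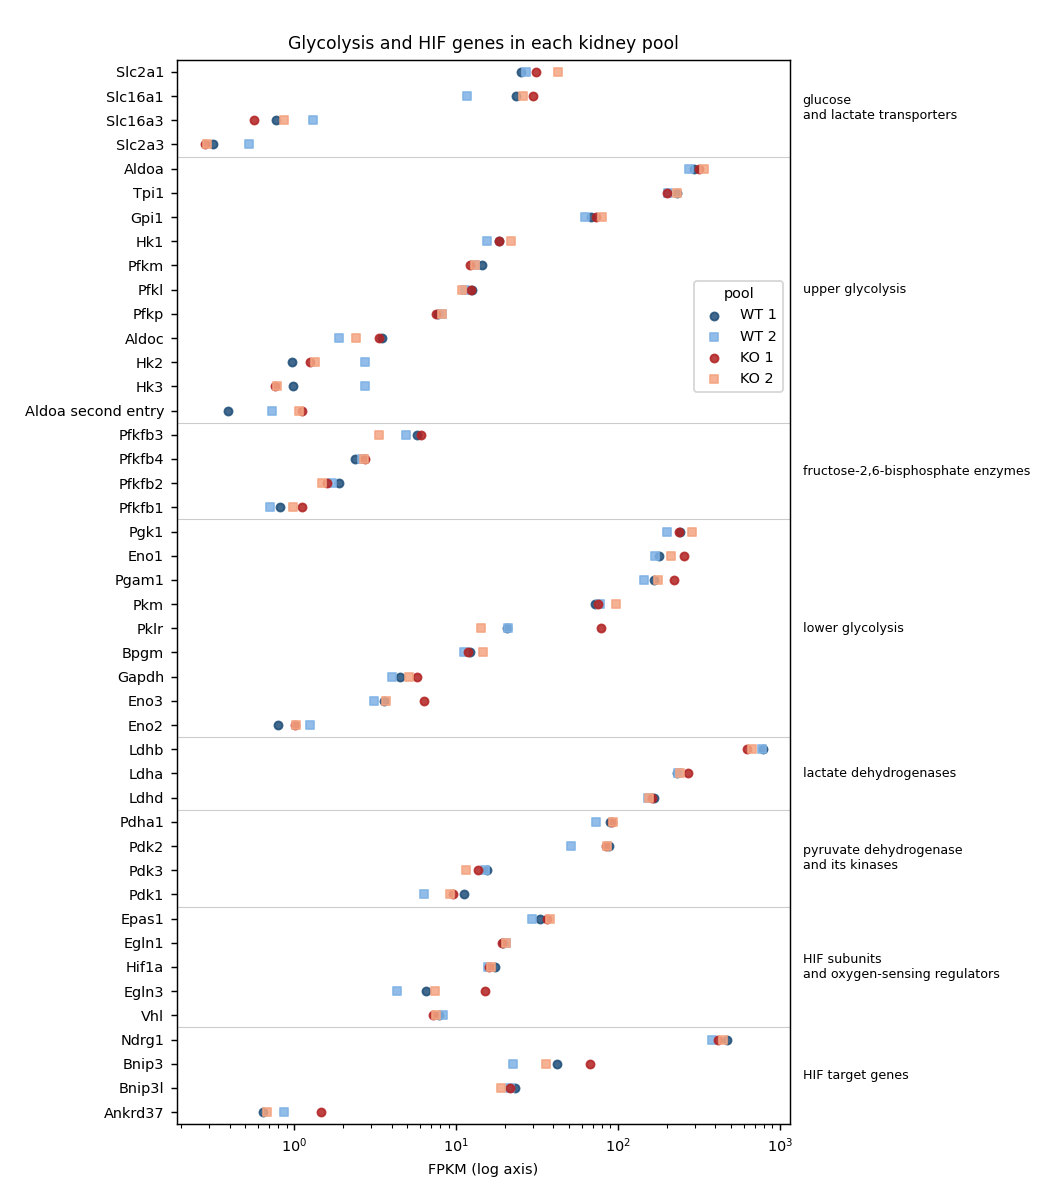
FPKM of each of the 44 rows (log axis) in the pools WT 1, WT 2, KO 1 and KO 2, grouped by role and ordered by mean level within a role. Levels span from 0.281 FPKM for Slc2a3 in KO 1 to 783 FPKM for Ldhb in WT 1, and for most genes the 4 points lie close together.

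Of the 44 rows, 9 had a mean of at least 100 FPKM, 17 lay between 10 and 100, 13 between 1 and 10, and 5 under 1. The abundant group held Aldoa, Tpi1, Pgk1, Pgam1, Eno1, the 3 lactate dehydrogenases and Ndrg1. Those under 1 were Slc2a3, Slc16a3, Pfkfb1, Ankrd37 and the other Aldoa entry. FPKM is scaled by gene length, so that levels of different genes can be set side by side. Those of Gapdh, Eno1, Pgk1, Bnip3, Pgam1 and Pkm are uncertain, however, because they share long stretches with other genes. Smaller parts of other transcripts are shared too, those of Ldhb, Gpi1, Pklr and Ldha among them, as described with the lower glycolytic enzymes.

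Promoter sequences help to place these genes, because the hypoxia-response element is a short motif near the start of many of them. RefSeq start sites on GRCm38.p6 were available for 39 of the 43 symbols, in 59 windows of 250 bases upstream of a start site. The symbols not matched were Bnip3l, Epas1, Ndrg1 and Slc2a3. ACGTG was searched on both strands, so that the palindrome CACGTG counts as 2 matches, and 21 of the 39 genes (53.8%) held it in at least 1 window. The share was 24.3% of the 10405 genes tested that have a window, and 18.5% of all 27025 genes. A gene with more windows has more chances of a match. Per window, ACGTG was held by 42.4% of the 59, against 16.6% of all 32851 windows. ACGTG or GCGTG occurred in 33 of the 39 (84.6%), against 59.7% of the genes tested and 41.5% of all genes. The median GC content was 60.6% for the 39 genes and 59.6% for the genes tested. The 6 windows shown here were chosen because they belong to Egln3, Slc16a1 and Slc2a1, 3 of the genes with the largest differences between groups, to Ldha and Bnip3, which hold 5 matches each to ACGTG or GCGTG, and to the second Pklr start site, which holds 0. Each is written 5′ to 3′ on the strand of its gene and ends at the base before the start site, with matches to ACGTG or GCGTG on either strand in capitals.
Egln3, chr12:54203875-54204124, minus strand: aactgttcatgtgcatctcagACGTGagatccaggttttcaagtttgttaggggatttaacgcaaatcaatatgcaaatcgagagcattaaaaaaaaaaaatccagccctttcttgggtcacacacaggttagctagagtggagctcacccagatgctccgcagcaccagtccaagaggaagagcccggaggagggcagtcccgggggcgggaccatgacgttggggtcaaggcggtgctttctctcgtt
Slc16a1, chr3:104638414-104638663, plus strand: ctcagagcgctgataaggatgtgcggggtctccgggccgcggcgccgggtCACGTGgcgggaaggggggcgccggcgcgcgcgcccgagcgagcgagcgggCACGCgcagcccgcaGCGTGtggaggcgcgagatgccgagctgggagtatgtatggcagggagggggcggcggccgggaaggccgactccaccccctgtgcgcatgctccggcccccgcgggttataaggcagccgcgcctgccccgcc
Slc2a1, chr4:119108495-119108744, plus strand: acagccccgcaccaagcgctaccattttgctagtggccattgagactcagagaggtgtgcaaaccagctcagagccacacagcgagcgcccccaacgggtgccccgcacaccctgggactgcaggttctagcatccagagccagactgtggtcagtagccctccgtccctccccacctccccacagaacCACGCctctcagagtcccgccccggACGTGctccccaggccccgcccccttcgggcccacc
Bnip3, chr7:138909507-138909756, minus strand: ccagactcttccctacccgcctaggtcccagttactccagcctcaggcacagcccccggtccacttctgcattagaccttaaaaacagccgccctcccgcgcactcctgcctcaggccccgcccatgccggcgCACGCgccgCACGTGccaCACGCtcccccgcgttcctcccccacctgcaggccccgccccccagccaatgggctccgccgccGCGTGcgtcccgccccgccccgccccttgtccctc
Ldha, chr7:46845554-46845803, plus strand: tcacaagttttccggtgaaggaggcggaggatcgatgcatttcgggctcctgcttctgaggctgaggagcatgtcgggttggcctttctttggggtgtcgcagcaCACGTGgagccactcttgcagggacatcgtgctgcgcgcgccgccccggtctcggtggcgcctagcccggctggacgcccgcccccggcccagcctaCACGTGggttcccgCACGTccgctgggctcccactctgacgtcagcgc
Pklr, chr3:89136373-89136622, plus strand: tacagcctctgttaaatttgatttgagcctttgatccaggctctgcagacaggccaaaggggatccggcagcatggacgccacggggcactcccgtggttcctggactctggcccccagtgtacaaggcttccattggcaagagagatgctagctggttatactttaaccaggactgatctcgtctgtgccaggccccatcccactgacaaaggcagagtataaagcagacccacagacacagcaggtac
In the Egln3 window the 1 match ends 224 bases before the start site, while in Slc2a1, Bnip3 and Ldha the nearest match ends 31, 30 and 29 bases before it. A match is a description of letters and not of a bound site. Given without a test, the median log2 fold change was 0.136 for the 21 genes with ACGTG and 0.159 for the 18 without. Both KO pools lay above both WT pools for 6 of the 21 and for 8 of the 18, and below them for 4 and 2, beside the 19.7% and 18.1% of all genes tested.

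Glucose enters cells through facilitative transporters, and lactate leaves through monocarboxylate transporters. Slc2a1 encodes GLUT1, the basal glucose transporter, and lies on chromosome 4 from 119108711 to 119137983 (plus strand). It had 25.3 and 26.9 FPKM in WT and 31.0 and 42.7 FPKM in KO. The pools did not overlap, and the highest value was that of KO 2. Its log2 fold change of 0.47 (SE 0.19, n = 2 pools per group) had an unadjusted p of 0.0545, the lowest among these genes, and an adjusted p of 0.785 (limma). Slc16a1 encodes the monocarboxylate transporter MCT1 and lies on chromosome 3 from 104638668 to 104658462. It had 23.4 and 11.7 FPKM in WT against 30.1 and 25.9 FPKM in KO. WT 2 stood well below the other 3 pools, and the log2 fold change was 0.74 with all pools, with an SE of 0.34, and 0.25 without WT 2. Slc16a3, the lactate exporter MCT4, had between 0.56 and 1.30 FPKM, and Slc2a3, the high-affinity transporter GLUT3, had between 0.281 and 0.530 FPKM, with WT 2 highest for both. The log2 fold change of Slc16a3 was -0.33, and -0.078 without WT 2. As shares of the summed FPKM, Slc2a1 made up at least 98.1% of Slc2a1 plus Slc2a3, and Slc16a1 at least 90.0% of Slc16a1 plus Slc16a3 in every pool.

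In upper glycolysis, from hexokinase to triose phosphate isomerase, 11 rows were tested, with a median log2 fold change of -0.0055. Of these, 4 were higher in both KO pools than in either WT pool (36.4%, against 19.7% of all genes tested) and 2 were lower (18.2%, against 18.1%). The 4 were Aldoa, the other Aldoa entry with its few reads, Gpi1 and Hk1. Hk1 was counted by 18.40 FPKM in KO 1 against 18.36 FPKM in WT 1. Aldoa, the ubiquitous aldolase that splits fructose-1,6-bisphosphate, lies on chromosome 7 from 126795234 to 126800751 (minus strand) and was the most abundant, with 296 and 276 FPKM in the WT libraries, compared with 319 and 343 FPKM in the KO libraries. The groups did not overlap, and the log2 fold change of 0.21 (SE 0.17) had an adjusted p of 0.840 (limma). Glucose phosphate isomerase (Gpi1) had 68.1 and 62.9 FPKM in WT and 73.7 and 79.9 FPKM in KO, again without overlap. Triose phosphate isomerase (Tpi1) spanned the same range in both groups, from 202 to 234 FPKM. The 3 phosphofructokinases, which catalyse the committed step, had log2 fold changes of -0.04 for Pfkl, -0.13 for Pfkm and -0.02 for Pfkp. Their 95% intervals together ran from -0.43 to 0.30. Pfkm made up 38.1% to 41.9% of their summed FPKM. The other Aldoa entry, on the same strand upstream of the main one from 126800790 to 126809108, had 5 and 10 reads in WT against 15 and 14 reads in KO, and its log2 fold change of 0.62 rests on these few reads.

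The hexokinases phosphorylate glucose on entry. Hk1, the widespread isozyme, had 18.4 and 15.6 FPKM in the WT libraries, compared with 18.4 and 22.0 FPKM in the KO libraries, with WT 1 and KO 1 nearly alike. Hk2, the isozyme induced by HIF and insulin, had 0.97 and 2.74 FPKM in WT and 1.26 and 1.35 FPKM in KO. Hk3, known from myeloid cells, lies on chromosome 13 from 55005985 to 55021385 and had 0.98 and 2.73 FPKM in WT against 0.76 and 0.79 FPKM in KO. For both genes WT 2 stood above the other 3 pools. The log2 fold change of Hk3 was -0.78 (SE 0.41, adjusted p = 0.798 with limma), the lowest among these genes, and -0.22 without WT 2. Hk3 overlaps Unc5a on the opposite strand by only 34 bases. Unc5a also was highest in WT 2, with 2.11 FPKM against 0.78 to 1.08 FPKM in the other pools. Hk1 made up 74.1% of the summed hexokinase FPKM in WT 2 and 90.1% to 91.1% in the other pools.

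WT 2 also stood apart in markers of macrophages. The 13 macrophage and monocyte markers summed to 500 FPKM in WT 2 and to between 211 and 267 FPKM in the other pools, and 11 of the 13 were highest there, Adgre1 (F4/80) among them with 11.2 FPKM against 2.43 to 3.89 FPKM. The 16 proximal tubule markers summed to 7833 FPKM in WT 2 and to between 10608 and 14627 FPKM in the others, with 9 of the 16 lowest in WT 2 and 7 lowest in KO 1. Kap and Pck1 held most of this sum, and without them, a choice made after the values were seen, it was 3880 and 2871 FPKM in WT and 2449 and 3429 FPKM in KO, lowest in KO 1. In WT 2 the level of 21 of the 43 rows was the lowest of the 4 pools, compared with 8 in WT 1, 8 in KO 1 and 6 in KO 2. Over all genes tested, the lowest value lay in WT 2 for 30.7%, in WT 1 for 22.2%, in KO 1 for 23.3% and in KO 2 for 23.7%. The highest value lay in WT 2 for 6 rows, beside 12 in WT 1, 14 in KO 1 and 11 in KO 2, whereas over all genes tested these shares were 29.1%, 20.7%, 25.02% and 25.2%. The 6 were Hk2, Hk3, Slc16a3, Eno2, Vhl and Egln1. Of the 10 markers of tubular injury, 4 lay above both WT pools in both KO pools (40.0%, against 19.7% of all genes tested) and 2 below them (20%, against 18.1%). For 3 of the 10 the unadjusted p was under 0.05 (limma), beside 3.29% of all genes tested higher in KO and 3.03% lower. Lcn2, a marker of distal tubular injury, had 133 and 95.2 FPKM in WT against 249 and 273 FPKM in KO (log2 fold change 1.21), and Krt20 had 35.6 and 36.8 FPKM in WT against 60.0 and 61.0 FPKM in KO (0.73). Vcam1, found on tubule cells after injury and on endothelium, had 14.6 and 31.0 FPKM in the WT libraries, compared with 10.5 and 2.59 FPKM in KO (-1.91). For Vcam1, KO 2 stood well below the other pools, so the size of its fold change depends on that pool. Havcr1 had 210 and 393 FPKM in WT against 249 and 105 FPKM in KO (-0.83), with overlap. The log2 fold change of Cd44 was -0.84. Over the 10 injury markers the log2 fold change was above 0 for 5 and below 0 for 5, with a median of -0.058. Spp1 held most of the summed FPKM of the 10. The part of tubular injury and of cell composition in these values was not tested. In whole-kidney RNA, fewer cells of a type and less RNA per cell cannot be told apart.

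**Figure D2:**
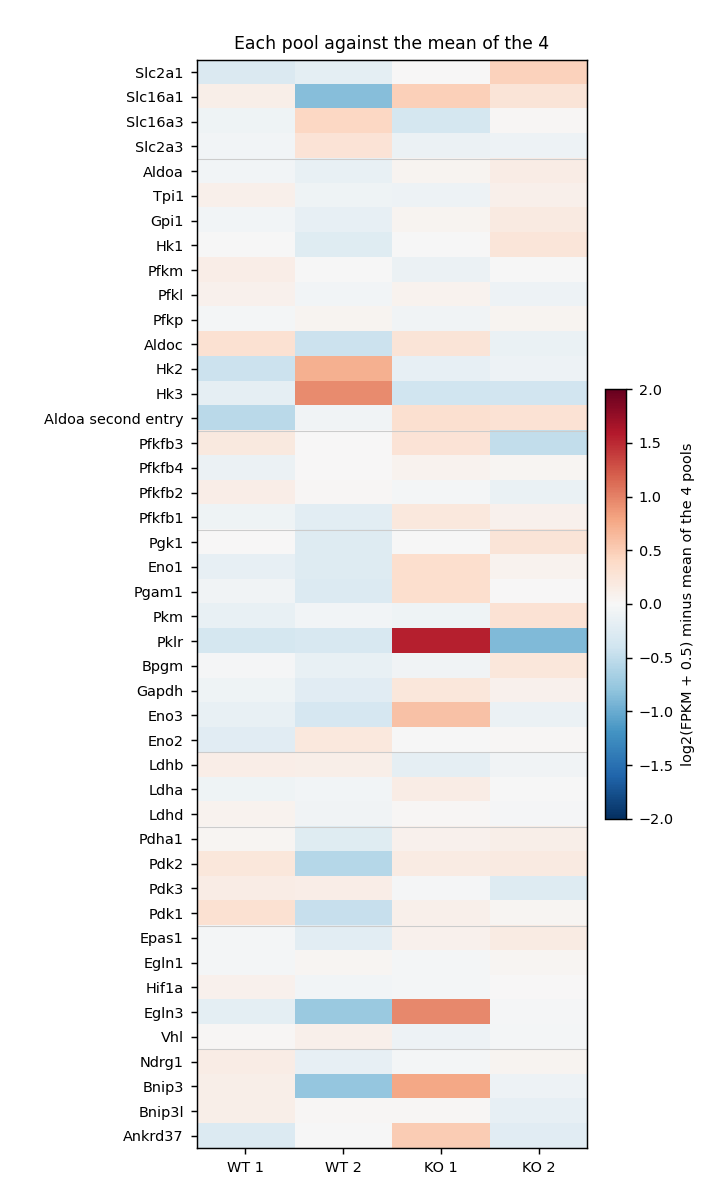
Each tile is log2(FPKM + 0.5) of 1 row in 1 pool minus its mean over the 4 pools, with rows in the order of the plot of levels. Pklr in KO 1 is the strongest colour, Hk2 and Hk3 are high in WT 2 only, and Slc16a1, Egln3, Bnip3 and Pdk2 are low in WT 2.

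The PFKFB enzymes make and degrade fructose-2,6-bisphosphate, the activator of phosphofructokinase. Pfkfb3, a HIF target with high kinase activity, was the most abundant, with 5.72 and 4.95 FPKM in the WT libraries, compared with 6.08 and 3.37 FPKM in the KO libraries. The KO pools enclosed both WT pools, and the log2 fold change was -0.21 (SE 0.28). Pfkfb1 lay between 0.71 and 0.82 FPKM in WT and between 0.98 and 1.12 FPKM in KO, Pfkfb4 was higher in both KO pools (log2 fold change 0.10), and Pfkfb2 was lower in both (-0.17). Pfkfb1 made up 7.60% and 7.08% of the summed PFKFB FPKM in WT and 9.65% and 11.5% in KO.

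In lower glycolysis, from glyceraldehyde-3-phosphate dehydrogenase to pyruvate kinase, the log2 fold change was above 0 for all 9 genes, compared with 51.4% of all genes tested, with a median of 0.317. Without KO 1, and likewise without WT 1, it was above 0 for 8 of the 9, the exceptions being Pklr and Eno2, respectively. With a pool left out, the median ran from 0.242 (without KO 1) to 0.392 (without KO 2). WT 2 was the lowest pool for 6 of the 9 and KO 1 the highest for 5. With all pools, both KO pools lay above both WT pools for 4 (44.4%, against 19.7% of all genes tested), Gapdh, Pgam1, Eno1 and Eno3. The unadjusted p of each of the 9 was at least 0.0613 and the adjusted p at least 0.786 (limma). Eno1, the ubiquitous enolase, lies on chromosome 4 from 150236721 to 150248879 and had 181 and 169 FPKM in WT against 256 and 212 FPKM in KO. Its log2 fold change was 0.41 (SE 0.17, unadjusted p = 0.0641, limma). Eno3, the muscle-type enolase, had 3.61 and 3.11 FPKM in the WT libraries, compared with 6.33 and 3.68 FPKM in the KO libraries, so that KO 1 alone stood apart and KO 2 lay just above WT 1. Pgam1, a phosphoglycerate mutase, lies on chromosome 19 from 41911871 to 41918664 and had 167 and 145 FPKM in WT and 221 and 176 FPKM in KO (log2 fold change 0.34, SE 0.19, and 0.18 without KO 1). Pgk1, the phosphoglycerate kinase that yields ATP, had the highest mean FPKM of this stretch as deposited, with 242 and 202 FPKM in WT against 239 and 289 FPKM in KO. These overlapped, since KO 1 lay just below WT 1. Eno2, the neuronal enolase, and Bpgm, which makes 2,3-bisphosphoglycerate, also overlapped between groups, with log2 fold changes of 0.016 and 0.17, the latter being 0.022 without KO 2. Eno1 made up at least 97.2% of the summed FPKM of Eno1, Eno2 and Eno3 in every pool. Eno1b, whose values are given below, was not part of this sum, and the Eno1 share would be lower with it.

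Gapdh had 4.49 and 4.04 FPKM in the WT libraries, compared with 5.74 and 5.13 FPKM in the KO libraries, from 298, 287, 397 and 344 reads (log2 fold change 0.32, SE 0.13). The adjacent steps Aldoa, Tpi1 and Pgk1 had between 202 and 343 FPKM. Of the 50-base windows of its longest coding transcript in GENCODE M21, 82.5% occur in transcripts of 222 other genes, and 1 of these, Gm7336, had 9.70 and 11.2 FPKM in WT and 12.5 and 13.9 FPKM in KO. How the authors counted reads that match several genes is not given in the sources used here, so the level of Gapdh cannot be compared with the other steps. Shared windows were also frequent for Eno1 (72.2%), Pgk1 (68.0%), Bnip3 (62.4%), Pgam1 (41.5%) and Pkm (34.4%). The copy that shares most with Eno1 is Eno1b, which had 42.5 and 37.5 FPKM in WT against 57.2 and 54.0 FPKM in KO. Pgam1-ps2, the closest match to Pgam1, had 8.21 and 6.99 FPKM in the WT libraries, compared with 11.1 and 9.82 FPKM in the KO libraries. These 2 copies lay higher in both KO pools, as did the genes they resemble. Pgk1-rs7, the closest match to Pgk1, had 2.78 and 1.71 FPKM in WT against 2.00 and 2.60 FPKM in KO, and overlapped between groups like Pgk1. Whether reads were split between a gene and its copy was not tested.

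Pyruvate kinase, the last step, is encoded by Pkm, found in most tissues and in proliferating cells, and by Pklr, the form of liver, red cells and proximal tubule. Pkm had 72.0 and 77.2 FPKM in WT and 75.5 and 97.6 FPKM in KO. Pklr, on chromosome 3 from 89136142 to 89146784, had 20.7 and 21.1 FPKM in the WT pools but 79.3 FPKM in KO 1 and 14.2 FPKM in KO 2. The KO pools thus differed 5.58-fold while the WT pools were nearly equal, and the log2 fold change of 0.68 had an SE of 0.81. Without KO 1 it was -0.54. Pklr overlaps Hcn3 on the opposite strand by 711 bases, and Hcn3 was also highest in KO 1, with 3.25 FPKM against 1.06 to 1.23 FPKM in the other pools. Red blood cell markers summed to 128 and 126 FPKM in WT and to 64.7 and 179 FPKM in KO. Those of the proximal tubule summed to 14627 and 7833 FPKM in WT and to 10608 and 14339 FPKM in KO. The part of either cell type in the Pklr values was not tested. Pklr held 51.2% of the summed pyruvate kinase FPKM in KO 1 and between 12.7% and 22.3% in the other pools.

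**Figure D3:**
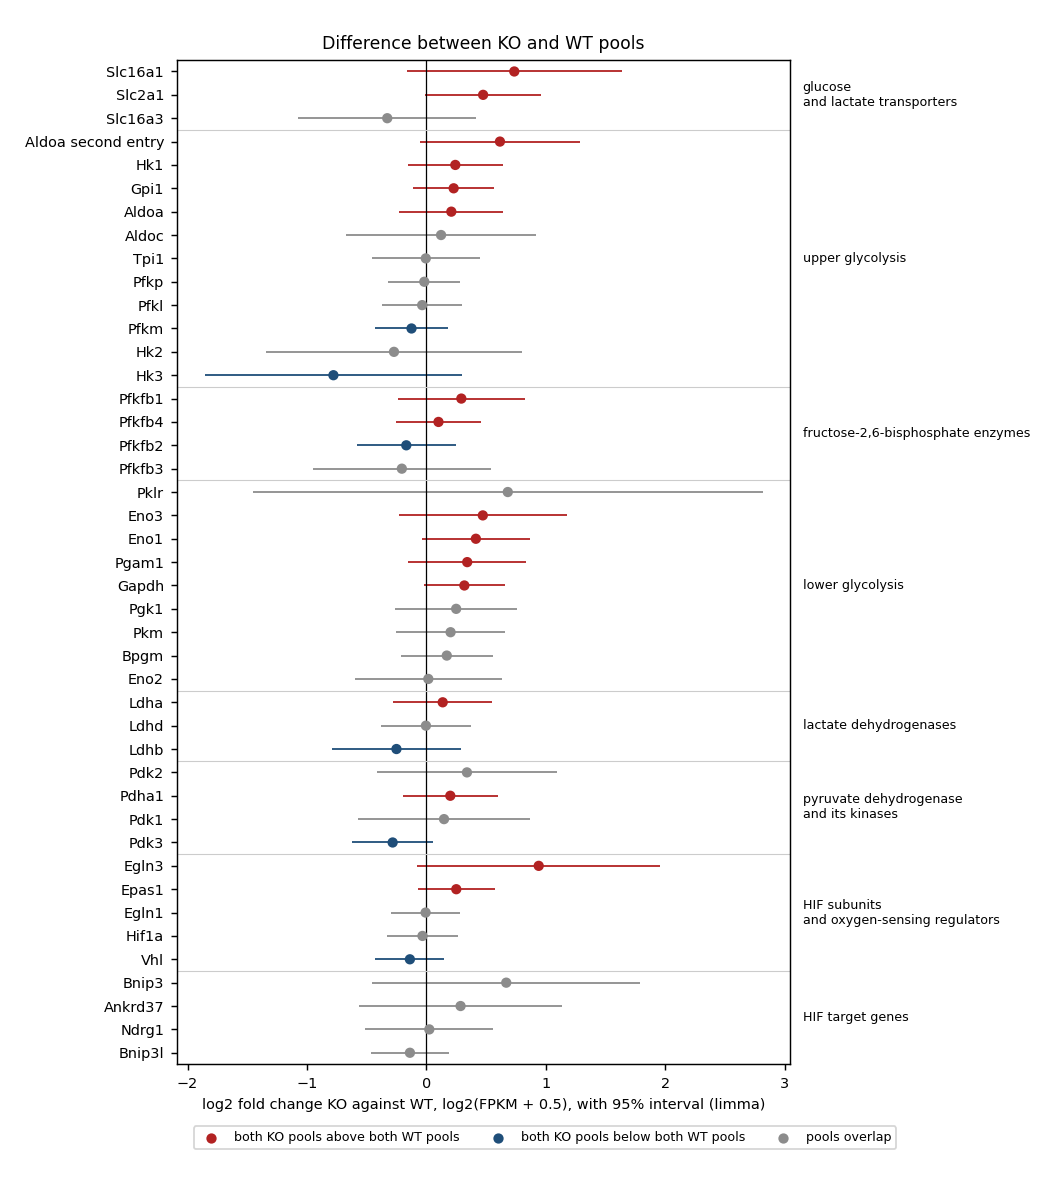
Log2 fold change of KO against WT on log2(FPKM + 0.5) for the 43 rows tested, with 95% intervals from limma, coloured by whether the pools overlap. Every interval includes 0, the widest being that of Pklr, and all 9 points of lower glycolysis lie right of 0.

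Lactate dehydrogenase interconverts pyruvate and lactate as a tetramer of LDHA and LDHB subunits, the LDHA-rich forms being typical of glycolytic tissue and LDHB-rich forms of oxidative tissue such as the renal cortex. Ldhb, on chromosome 6 from 142490249 to 142507957, had 783 and 773 FPKM in the WT libraries, compared with 631 and 677 FPKM in KO (log2 fold change -0.25, SE 0.20, adjusted p = 0.845 with limma). Ldha, on chromosome 7 from 46841475 to 46855627, had 231 and 235 FPKM in WT and 270 and 243 FPKM in the KO libraries (0.14, SE 0.16, but 0.059 without KO 1 and 0.013 with quantile normalization). The groups did not overlap for either gene, with Ldhb lower and Ldha higher in both KO pools. Ldha therefore made up 22.7% and 23.3% of the summed Ldha and Ldhb FPKM in WT against 30.0% and 26.4% in KO, a difference of 5.14 percentage points, or 3.35 without KO 1. The exact permutation p of this share was 0.333, the smallest possible, and 0.833 after adjustment over the 30 shares of 11 steps compared. The 2 shares of a pair of isozymes mirror each other. Ldhd, the mitochondrial D-lactate dehydrogenase, ranged from 153 to 167 FPKM.

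Pyruvate dehydrogenase commits pyruvate to the citric acid cycle, and its kinases (PDK) switch it off by phosphorylation. Pdha1, the main catalytic subunit, lies on the X chromosome from 160122209 to 160138413 and had 88.9 and 73.2 FPKM in the WT libraries, compared with 91.5 and 93.9 FPKM in KO. The log2 fold change was 0.20 (SE 0.15) and 0.060 without WT 2. Pdk2, the major kinase at rest, had 88.8 FPKM in WT 1, 84.7 and 85.9 FPKM in the KO libraries, and 51.1 FPKM in WT 2. Pdk1, a HIF target, had the same order in WT, at 11.2 and 6.35 FPKM, with 9.65 and 9.17 FPKM in KO. Pdk3 had 15.5 and 15.2 FPKM in WT and 13.6 and 11.5 FPKM in KO, a log2 fold change of -0.28 (SE 0.13, unadjusted p = 0.0838, limma) and of -0.16 without KO 2. Pdk4, the kinase induced by fasting and fatty acids and read from the list of other pathway genes, had 51.3 and 14.5 FPKM in WT against 125 and 55.4 FPKM in the KO libraries. KO 2 exceeded WT 1 by only a few FPKM, and the log2 fold change of 1.59 had an SE of 0.71 and an unadjusted p of 0.0804 (limma), and was 0.69 without WT 2. Of the summed PDK FPKM, Pdk4 held 30.8% and 16.6% in the WT libraries, compared with 53.6% and 34.2% in KO. Its exact permutation p was 0.333 (0.833 adjusted over the 30 shares), and the shares of the other kinases, being parts of the same sum, are not independent of it. The Pdk4 share differed by 20.2 percentage points between groups, by 13.1 without WT 2 and by 10.5 without KO 1.

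**Figure D4:**
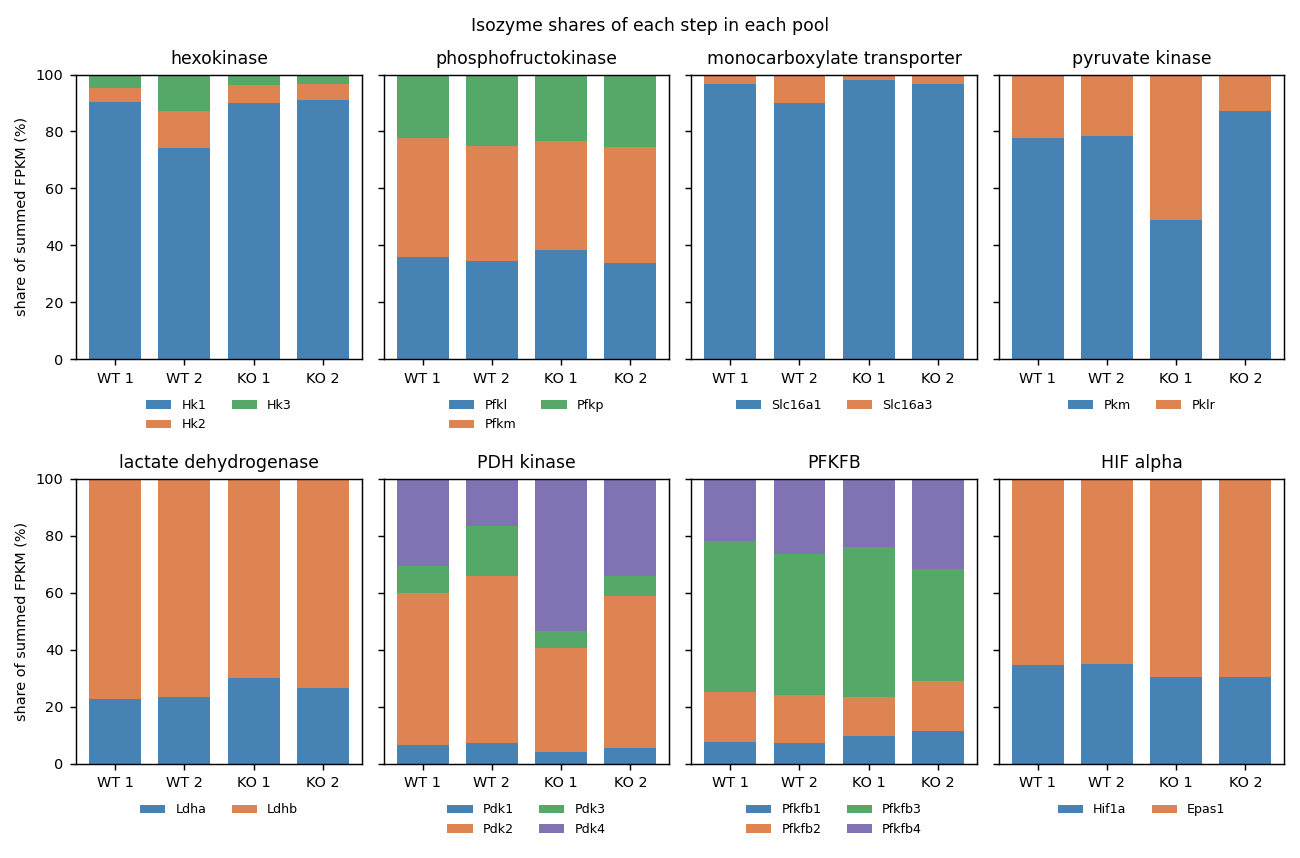
Stacked bars give the share (%) of each isozyme in the summed FPKM of 8 of the 11 steps compared (hexokinase, phosphofructokinase, monocarboxylate transporter, pyruvate kinase, lactate dehydrogenase, PDH kinase, PFKFB and HIF alpha subunit), in each pool, with Pdk4 added from the other pathway genes. The Ldha, Epas1 and Pdk4 shares are higher in both KO pools, and the pyruvate kinase bar of KO 1 departs from the other 3.

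Among the HIF subunits and oxygen sensors, Egln3 had the largest log2 fold change of all 43 rows. Egln3 encodes the prolyl hydroxylase PHD3, itself a HIF target that acts as feedback, and lies on chromosome 12 from 54178981 to 54203860 (minus strand). It had 6.54 and 4.30 FPKM in WT and 15.2 and 7.43 FPKM in KO. The KO mean was 2.09-fold the WT mean, and KO 1 was the highest pool. The log2 fold change was 0.94 (SE 0.39, unadjusted p = 0.0634, adjusted p = 0.786, limma) and 0.45 without KO 1. Egln1, the main oxygen sensor PHD2, ranged from 19.3 to 20.5 FPKM, with a 95% interval of the log2 fold change from -0.29 to 0.28. Vhl had 7.91 and 8.38 FPKM in WT against 7.18 and 7.52 FPKM in the KO libraries (log2 fold change -0.14, SE 0.11).

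Hif1a, on chromosome 12 from 73901375 to 73947530, had 17.4 and 15.8 FPKM in the WT libraries, compared with 15.9 and 16.5 FPKM in KO, with a log2 fold change of -0.03 and a 95% interval from -0.33 to 0.26. Epas1, on chromosome 17 from 86753907 to 86833410, encodes the alpha subunit found in endothelial and interstitial cells and had 33.1 and 29.3 FPKM in WT and 36.3 and 38.0 FPKM in KO. The Epas1 groups did not overlap (log2 fold change 0.25, SE 0.12, unadjusted p = 0.101, limma). Epas1 made up 65.5% and 64.9% of the summed FPKM of both subunits in WT against 69.5% and 69.7% in the KO libraries, a difference of 4.38 percentage points (exact permutation p = 0.333, and 0.833 adjusted over the 30 shares). The 10 endothelial markers summed to 177 and 202 FPKM in the WT pools and to 250 and 261 FPKM in KO. Plvap held most of these sums, with 103 and 110 FPKM in WT and 161 and 152 FPKM in KO. Without Plvap, left out after the values were seen, the sum of KO 1 lay below that of WT 2, so the groups overlapped. Of the 10 markers, 6 lay above both WT pools in both KO pools (60%, against 19.7% of all genes tested) and 0 below them (0%, against 18.1%). The part of endothelial cells in the Epas1 values was not tested.

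For the 4 other HIF target genes chosen, Bnip3, Bnip3l, Ndrg1 and Ankrd37, the pools overlapped between groups. Bnip3, a mitophagy receptor on chromosome 7 from 138890836 to 138909519, had 42.2 and 22.6 FPKM in the WT libraries, compared with 67.3 and 36.2 FPKM in KO, so that KO 2 lay below WT 1 (log2 fold change 0.67, SE 0.43). Bnip3l, its paralogue NIX, ranged from 19.0 to 23.2 FPKM. Ndrg1, a hypoxia-inducible gene on chromosome 15 and the most abundant of the 4, had 474 and 383 FPKM in WT and 419 and 448 FPKM in the KO libraries. Ankrd37 rested on 16 and 23 reads in WT against 38 and 17 reads in KO, with KO 1 alone above the rest. KO 1 was the highest pool for 14 of the 43 rows, and besides Bnip3 and Ankrd37 these include Egln3, Pklr, Eno1, Eno3 and Pgam1.

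The other genes of these pathways were read from 4 further lists. Of the 25 other glycolytic isozymes and glucose handling genes, 19 were tested, 3 were above both WT pools in both KO pools (15.8%, against 19.7% of all genes tested) and 5 below them (26.3%, against 18.1%), and the median log2 fold change was 0.019. The named genes of this list were Gpd1 and Gpd2, the enzymes of the glycerol-3-phosphate shuttle, and Eno1b. Eno1b was the 1 gene of the list with an unadjusted p under 0.05 (0.0160, adjusted p = 0.760, limma), beside 3.29% of all genes tested higher in KO. Gpd1 had 143 and 74.3 FPKM in the WT libraries, compared with 257 and 127 FPKM in KO, and Gpd2 had 9.78 and 7.05 FPKM in WT and 20.5 and 9.58 FPKM in the KO libraries, with overlap for both. In the pyruvate dehydrogenase complex and pyruvate entry list, 2 of 11 genes lay above (18.2%, against the same 19.7%) and 0 below, with a median of 0.105. Apart from Pdk4, the log2 fold changes named by the rule were 0.33 for Pcx (pyruvate carboxylase, 0.0092 without WT 2) and 0.22 for Pdp1 (a phosphatase that reactivates the complex, 0.14 without WT 2). Among 12 other HIF pathway components, 4 lay above (33.3%) and 2 below (16.7%), with a median of 0.032. Hif3a, a subunit that can act as an inhibitor, had 1.40 and 0.84 FPKM in WT against 2.06 and 1.47 FPKM in KO. Cited2, which competes for the HIF coactivator, had a log2 fold change of 0.36 (-0.014 without KO 1), and Cul2, the scaffold of the VHL ubiquitin ligase, one of -0.20.

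Of 27 other hypoxia-induced genes, 25 were tested, 10 were above both WT pools in both KO pools (40.0%, against 19.7% of all genes) and 1 below (4%, against 18.1%), and the median was 0.169. An unadjusted p under 0.05 was found for 3 of them, Hilpda, Gbe1 and Selenbp1, each higher in KO, beside 3.29% of all genes tested, and 0 passed the adjustment (limma). Hilpda, a lipid droplet protein, had 1.75 and 2.16 FPKM in the WT libraries, compared with 3.74 and 5.08 FPKM in KO (log2 fold change 0.99, SE 0.20, unadjusted p = 0.00489, adjusted p = 0.657). Adm, which encodes the vasodilator adrenomedullin, had 8.99 and 2.91 FPKM in WT and 10.7 and 10.8 FPKM in the KO libraries, with WT 2 alone far from the others. Without WT 2 its log2 fold change was 0.25. Angptl4, an inhibitor of lipoprotein lipase, had 41.6 and 26.3 FPKM in WT against 86.8 and 44.5 FPKM in KO. Angptl4 and Pdk4, together with Hilpda, are also known as targets of peroxisome proliferator-activated receptors. The remaining hypoxia-induced genes include Vegfa, the endothelial growth factor, with 48.7 and 38.3 FPKM in the WT libraries, compared with 42.6 and 39.9 FPKM in KO. Vegfa was added here after its values were seen.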

How the data were processed

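The authors deposited FPKM per gene in 4 kidney libraries, with the gene length in bases that they used for scaling. The submitters' processing notes name HISAT2 2.0.5 and GRCm38.p6 (mm10). The counting tool and its handling of reads that match several genes are not given in the sources used here. FPKM was multiplied by gene length and divided by the smallest such product above 0 in the library, taken as 1 read. This returned whole reads within 0.01, which served for depth and voom weights. The read total that the authors scaled by, as this implies, was 0.968 to 1.07 times the reads on genes, highest in WT 2. No column of values was left unused (0).

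The groups were tested with limma 3.58.1 (R 4.3.3, mean-variance trend, two-sided, no covariates) on log2(FPKM + 0.5), where the mean reached 0.5 FPKM, and called at a Benjamini-Hochberg adjusted p of 0.05. The fit was tested on simulated data. No source says that mice of different pools came from separate litters or days, so p-values measure only the spread between these pools. Isozyme shares of summed FPKM were compared with an exact permutation test (scipy 1.17.1, Python 3.11.15). The shares of 1 step were among those adjusted over but are not reported here. Fold changes of genes that share sequence with other genes are uncertain. Of the 44 rows, 25 overlap another gene and 14 another protein-coding gene, and the coordinates equal those of GENCODE M21 for 42.

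The members, the other lists and the markers were chosen with earlier results of these data known. Full values were given for the most abundant gene of each role, the 5 HIF regulators, and genes without overlap of the pools and with a log2 fold change of at least 0.3 in either direction. From each other pathway list the 3 genes with the largest log2 fold change and a mean of at least 1 FPKM were named. Gbe1, Selenbp1, Unc5a, Hcn3, Gm7336, Pgam1-ps2, Pgk1-rs7, Havcr1 and Cd44 were named after their values were seen. Summed FPKM of the remaining marker lists in WT 1, WT 2, KO 1 and KO 2 were 1410, 986, 1404 and 1182 for thick ascending limb and distal tubule, 463, 322, 465 and 394 for collecting duct, 12.5, 25.5, 13.2 and 31.5 for neutrophils, 185, 379, 232 and 316 for fibroblasts and smooth muscle, 1.35, 2.51, 2.07 and 1.52 for skeletal muscle, 8309, 9387, 10511 and 8112 for tubular injury, and 103, 136, 141 and 97.7 for the cell cycle. As alternatives, the pseudocount was set to 0.1 or 1, the filter was dropped or raised to 1 FPKM, and quantile normalization, voom, the replicate number as a block, an unadjusted p, shares of reads, and each pool left out in turn were tried.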

Additional observations from a re-analysis of the deposited data

How the results depend on the processing

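No gene passed the adjusted threshold under any alternative fitted with limma, where 845 to 1538 genes had an unadjusted p under 0.05 with all pools, the highest number being that without a filter, and 687 to 1720 with a pool left out (the highest without WT 1). With a pool left out, 1 group holds a single pool, which is assumed to vary like the 2 pools of the other group, so those p-values are no measure of stability. With the unadjusted p in place of the adjusted one, 974 genes passed. The median log2 fold change of the 43 rows lay between 0.086 (voom, which moves the median of all genes to -0.064) and 0.156, and between 0.085 (without KO 1) and 0.177 (without WT 1) with a pool left out. The replicate number gave no pairing, since pools with the same number did not deviate together (correlation -0.0017 across 15414 genes). With that replicate block, 932 genes had an unadjusted p under 0.05 and 4 of the 43 rows did, with a lowest adjusted p of 0.746 among them. The sign of the log2 fold change held with every pool left out for 28 of the 43 rows and turned for 15, and the cause was not tested. The 15 ran from -0.045 to 0.031 for Egln1, -0.10 to 0.033 for Hif1a, -0.13 to 0.18 for Ndrg1, -0.086 to 0.66 for Ankrd37, -0.59 to 0.18 for Pfkfb3, -0.071 to 0.062 for Ldhd, -0.54 to 1.90 for Pklr, -0.21 to 0.24 for Eno2, -0.057 to 0.73 for Pdk2, -0.24 to 0.53 for Pdk1, -0.11 to 0.099 for Tpi1, -0.13 to 0.053 for Pfkl, -0.079 to 0.043 for Pfkp, -0.24 to 0.49 for Aldoc and -0.84 to 0.30 for Hk2. The sign also turned for Ndrg1 with quantile normalization (-0.019) and voom (-0.048), and for Eno2 with voom (-0.035). Of the 28 rows that kept their sign, 20 fell in size by over 1.5 times with some pool left out. Beside those given with the results, these were Eno3 (0.12 without KO 1), Bnip3 (0.22) and Epas1 (0.16) without WT 2, Slc2a1 (0.25), Bnip3l (-0.046), Pgk1 (0.11), Pkm (0.018) and Hk1 (0.12) without KO 2, and Pfkfb4 (0.035), Pfkm (-0.056) and the other Aldoa entry (0.38) without WT 1. Quantile normalization gave 0.20 for Pgam1, 0.26 for Eno1, 0.11 for Aldoa, 0.13 for Gpi1 and 0.10 for Pdha1. Counted in reads rather than FPKM, 11 of the 30 shares were without overlap in place of 12. The difference between groups moved from -2.10 to -4.73 percentage points for Pdk1, from 0.80 to 1.61 for Slc2a1 and from 3.24 to 2.20 for Pfkfb1. Among the hexokinase shares it moved from -5.39 to -2.67 for Hk3 and from 8.38 to 5.25 for Hk1.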
